A study of Mus musculus with 12 samples.

Results

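The comparison described here set alveolar macrophages of Lmp7 knockout mice against those of wild-type mice after polarization with interleukin-4 (IL-4), the M2 state. Its members were the 3 knockout M2 arrays and the 3 wild-type M2 arrays, 6 of the 12 arrays of the series, chosen by their labelled genotype and cell population. The measured features were all probes that 3 or more of the 12 arrays detected, with a detection p under 0.05, which kept 9200 of 25697 probes and 6563 genes. All mice were C57Bl/6J, 8 to 12 weeks old and kept free of specific pathogens. Cells were recovered by bronchoalveolar lavage in 8 washes of 1 ml, and cells of the M2 groups were then held with 20 ng/ml of IL-4, for no longer than 24 h. The unpolarized (M0) groups of both genotypes, also 3 arrays each, received none and served here as a second pair of the same genotypes. How the Lmp7 allele was disrupted and whether animals were pooled were not stated in the sources at hand. Since no label ties a replicate to its own animal, the p-values reflect the variation among these samples alone, and that variation may be technical.

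Lmp7 is the protein encoded by Psmb8, the inducible chymotrypsin-like subunit that replaces Psmb5 in the immunoproteasome, the form of the proteasome carried by immune cells. The immunoproteasome cuts proteins into peptides for MHC class I and takes part in general protein turnover. IL-4 acts on macrophages through JAK kinases and the transcription factor Stat6, and in mice it induces Arg1, Retnla, Chil3 and other genes that define alternative activation. Alveolar macrophages clear surfactant lipids and inhaled particles, and are known for scavenger receptors such as Marco and for lectins such as Siglecf.

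The cells carried the markers of their labelled type in both genotypes. Siglecf, a lectin of alveolar macrophages, stood at 9.79, 9.85 and 9.87 on the wild-type M2 arrays and at 9.84, 9.88 and 9.85 on the knockout M2 arrays, in log2 units of normalized intensity. The mannose receptor Mrc1 stood at 10.50, 10.54 and 10.68 and 10.57, 10.43 and 10.60. Both groups overlapped for both genes. Of 26 measured genes of alveolar macrophage identity, Marco and Tgfbr1 were lower in knockout M2 cells, as described below. The other 24 did not pass the threshold given there. Of all probes, 29.2%, 30.9% and 31.6% were detected on wild-type M2 arrays a, b and c, and 25.5%, 32.3% and 30.9% on knockout M2 arrays a, b and c. The difference of the means was -1.04 percentage points (two-sided exact permutation test, p = 0.8, where 3 against 3 cannot go below 0.1). Knockout array a had the lowest share, and its correlations with the other knockout M2 arrays were 0.956 and 0.959, against 0.974 between arrays b and c. The serial numbers in the column names run from 7 to 9 in wild-type M2 and from 24 to 26 in knockout M2 cells, and what they count was not stated. Any effect that goes with them and the effect of genotype cannot be told apart.

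Loss of Lmp7 went with lower levels more often than with higher ones in M2 cells. Differences are knockout minus wild-type in log2 units with the standard error of the model, n = 3 arrays in each group. With limma and Benjamini-Hochberg adjustment over 6563 genes, 134 genes passed an adjusted p of 0.05, which is 2.04% of those tested. Of these, 44 were higher in knockout cells (0.67% of genes tested) and 90 were lower (1.37%). The difference was at least 2-fold for 9 of the higher and 30 of the lower genes. The values of the 6 arrays did not overlap between genotypes for any of the 134, and 19.2% of all genes tested had no overlap. Over all genes the median difference was -0.01 log2 units. Of the 36 genes with more than 1 measured probe, 49 of 51 further probes had the same sign and 21 of those also passed. Among the 134, 15 were undetected on every knockout M2 array and 6 on every wild-type M2 array, and a fold of at least N is then given, the brighter group's mean against the lowest level that counted as detected on the dim arrays, or the probe's own value there where that was higher.

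The number of genes past the threshold fell whichever array was left out. It was 45 without wild-type array a, 51 without b and 70 without c, and 72, 84 and 63 without knockout arrays a, b and c. It was 41 without the 3 arrays of low detected share, those more than 3 percentage points below their group's mean. These are knockout M2 array a and array a of both M0 groups. In each of these repeats the p-values came from the remaining arrays, with the spread pooled over all groups. Without each of the 6 M2 arrays in turn, 37 genes stayed past the threshold every time and 97 did not. In all, 793 genes had an unadjusted p under 0.05.

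**Figure D1:**
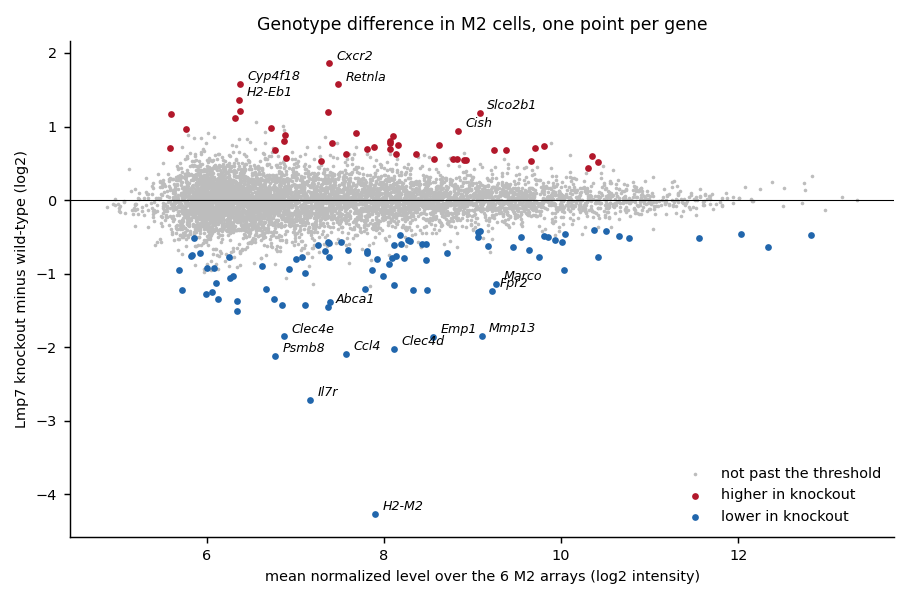
Genotype difference in M2 cells for 6563 genes. The horizontal axis is the mean normalized level over the 6 M2 arrays (log2 intensity) and the vertical axis is knockout minus wild-type (log2). Each point is a gene, red points are the 44 genes past the threshold and higher in knockout cells, and blue points are the 90 lower ones. The lower genes reach -4.27 (H2-M2), while the higher genes reach 1.86 (Cxcr2).

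Psmb8, the targeted gene, was the check of the labels. Its level was 7.96, 7.78 and 7.75 on wild-type M2 arrays a, b and c and 5.79, 5.62 and 5.72 on knockout M2 arrays. The knockout arrays lay together, more than 1 log2 unit below the wild-type arrays, and Psmb8 was detected on none of them. The decrease was at least 3.32-fold, with a model difference of -2.12 ± 0.14, adjusted p = 3.1e-05. The position of this probe relative to the deletion was not stated. The other inducible catalytic subunits did not pass the threshold. Psmb9 stood at 9.37, 9.21 and 9.24 in wild-type and 9.72, 9.79 and 9.66 in knockout M2 cells, without overlap, a difference of 0.45 ± 0.12, adjusted p = 0.0812. Psmb10 differed by 0.25 ± 0.09, adjusted p = 0.24, and Psmb5, the constitutive counterpart of Psmb8, by 0.33 ± 0.13, adjusted p = 0.31. Psmb6 and Psmb7, the remaining constitutive catalytic subunits, differed by -0.13 ± 0.12, adjusted p = 0.753 and -0.01 ± 0.13, adjusted p = 0.994. Of 16 measured genes for the immunoproteasome and MHC class I loading, Psmb8 alone passed. Of 32 measured genes of the constitutive proteasome none passed, with differences from -0.20 to 0.33 and a median of 0.02. None of 14 measured ubiquitin and proteasome stress genes passed either (median -0.12).

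**Figure D2:**
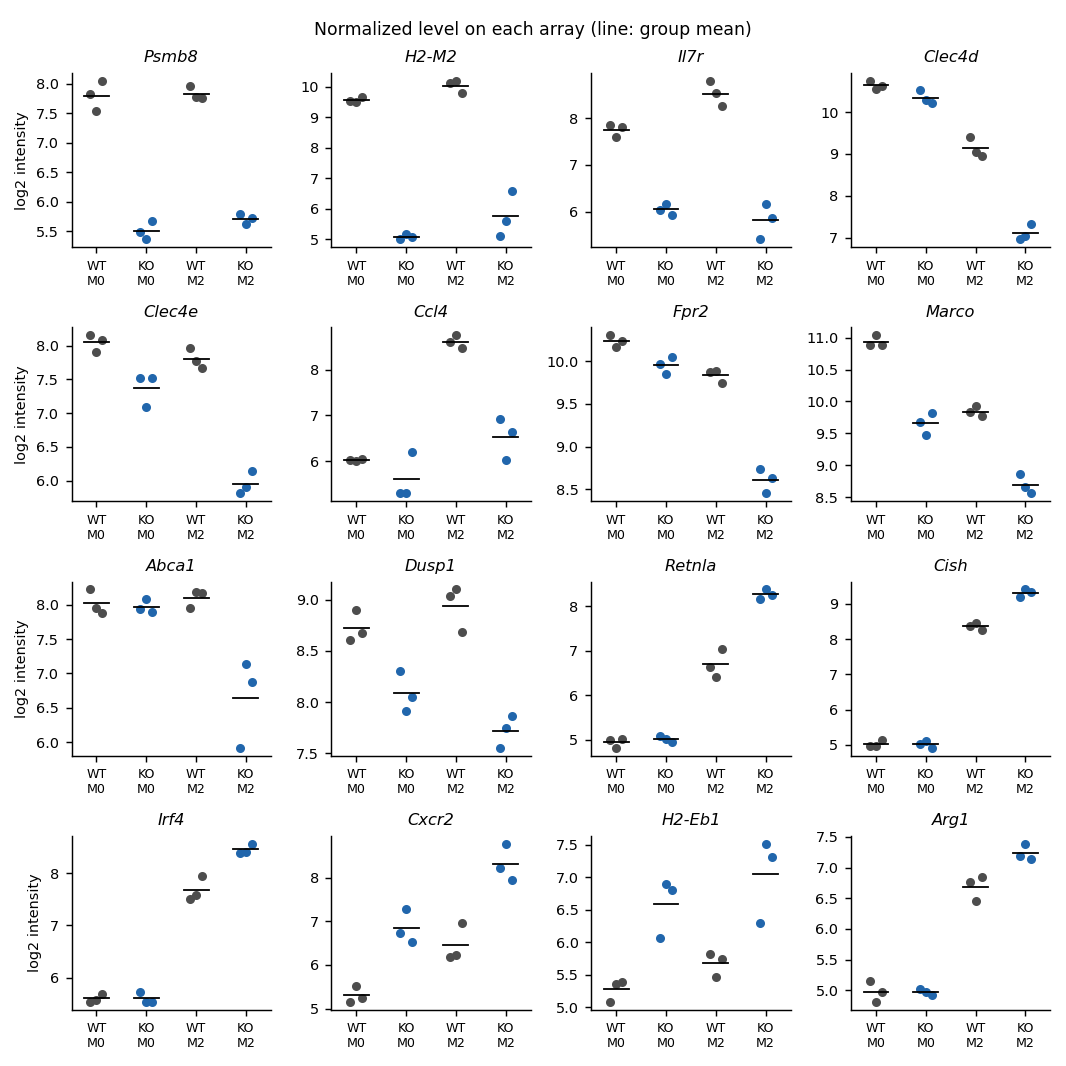
Normalized level of 16 genes on each of the 12 arrays. The vertical axes are log2 intensity, with a separate range for each gene. Points are arrays a, b and c of wild-type (WT, grey) and Lmp7 knockout (KO, blue) cells in the M0 and M2 states, and horizontal lines are group means. Psmb8 is low in both knockout groups, Retnla and Cish differ between genotypes in the M2 groups, and Arg1 does not pass the threshold.

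Genes that mark the IL-4 response did not move together. Of 34 measured genes of an M2 marker list, 4 were higher in knockout M2 cells, 4 were lower and 26 did not pass, with a median of 0.06. The share past the threshold over all genes tested was 2.04%. Retnla, which encodes the secreted protein RELM-alpha, stood at 6.63, 6.41 and 7.05 in wild-type and 8.18, 8.38 and 8.25 in knockout M2 cells. Every knockout array lay more than 1 log2 unit above the highest wild-type array, a fold of 2.98 and a difference of 1.57 ± 0.15, adjusted p = 0.000296. Cish, a STAT-induced gene that damps cytokine receptors, stood at 8.38, 8.46 and 8.25 and 9.19, 9.41 and 9.32, a difference of 0.94 ± 0.11, adjusted p = 0.00111. Both genes were detected on no M0 array, so the rise with IL-4 is a bound, at least 1.63-fold in wild-type and 4.75-fold in knockout cells for Retnla and at least 5.17-fold in wild-type and 9.75-fold in knockout cells for Cish. These rises share the M2 arrays with the genotype difference. Irf4, a transcription factor of alternative activation, stood at 7.51, 7.58 and 7.95 and 8.39, 8.41 and 8.57, without overlap (0.78 ± 0.13, adjusted p = 0.0129). Rnase2a, an eosinophil-associated ribonuclease, differed by 0.53 ± 0.10, adjusted p = 0.0249. Retnla and Cish stayed past the threshold without any one of the 6 M2 arrays. Irf4 did not without wild-type array a, wild-type array b or knockout array c (adjusted p 0.061, 0.066 and 0.053), and Rnase2a stayed past only without wild-type array a.

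Other classical M2 genes did not pass the threshold. Arg1, the arginase, stood at 6.76, 6.45 and 6.85 in wild-type and 7.20, 7.39 and 7.14 in knockout M2 cells. Its knockout arrays were all above its wild-type arrays, but the difference of 0.56 ± 0.13, adjusted p = 0.0605 did not pass. Ccl17, a chemokine that attracts T helper cells, likewise did not overlap between genotypes and did not pass (0.77 ± 0.19, adjusted p = 0.067). Chil3, a chitinase-like protein, stood at 13.07, 13.20 and 13.20 and 13.20, 13.20 and 13.20, at the upper end of the intensity range, where differences can be compressed. Quantile normalization also gives a probe of equal rank the same value on every array, so equal values there cannot show a difference. The measured difference of 0.04 ± 0.10, adjusted p = 0.933 therefore does not show equal levels. Mrc1 differed by -0.04 ± 0.09, adjusted p = 0.938, Ppargc1b by 0.32 ± 0.13, adjusted p = 0.308 and Socs1 by 0.07 ± 0.24, adjusted p = 0.961. Stat6 itself differed by 0.05, adjusted p = 0.947, and of 23 measured JAK-STAT genes Cish alone passed. The lower members of the M2 list were Mmp13 and Mmp12, both matrix metalloproteinases, the IL-1 receptor antagonist Il1rn, and Ch25h, which makes 25-hydroxycholesterol. They are described with their own groups below.

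The Retnla promoter is shown because Retnla is the IL-4 target with the greatest increase among the M2 markers, and Stat6 binds motifs of the form TTCNNNNGAA. It is the RefSeq window (GRCm38.p6, chr16:48842359-48842658, plus strand) of 250 bases before to 50 bases after the annotated start. Capitals mark the single match on either strand, whose first base lies at position -145 from the start.
Retnla: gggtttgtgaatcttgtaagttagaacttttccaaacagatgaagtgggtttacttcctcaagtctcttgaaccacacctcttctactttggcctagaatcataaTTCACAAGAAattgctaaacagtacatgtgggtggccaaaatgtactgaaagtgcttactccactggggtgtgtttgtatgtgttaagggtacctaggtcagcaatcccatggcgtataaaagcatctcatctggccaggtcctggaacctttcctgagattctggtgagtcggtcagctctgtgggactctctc
The motif is present in 6.95% of 32851 RefSeq promoters of this length. The Cish window held no match, which says only that these letters are not in it. The match is a description of the sequence and no measure of binding.

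Receptors that sense microbes and damaged cells were among the genes with the largest decreases. Of 36 measured pattern recognition and phagocytic receptors, 6 were lower in knockout M2 cells, against 1.37% of all genes tested. None was higher, 30 did not pass, 21 of the 36 had a positive difference, and the median was 0.02. Clec4d and Clec4e, neighbouring C-type lectins also known as MCL and Mincle that recognize mycobacterial glycolipids, led the list. Clec4d stood at 9.40, 9.04 and 8.95 in wild-type and 6.96, 7.04 and 7.32 in knockout M2 cells, a fold of 4.07 and a difference of -2.03 ± 0.15, adjusted p = 4.07e-05. Clec4e stood at 7.97, 7.78 and 7.67 and 5.81, 5.90 and 6.14, a difference of -1.85 ± 0.15, adjusted p = 7.31e-05, and was detected on 1 of 3 knockout arrays. For both genes the 2 genotypes were far apart, with more than 1 log2 unit between the nearest arrays. A second, dimmer probe of Clec4e differed by -0.76 and did not pass (adjusted p = 0.301). Clec4n, the related lectin Dectin-2, differed by -0.78 ± 0.11, adjusted p = 0.00531.

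Fpr2, a receptor for formylated peptides, stood at 9.88, 9.89 and 9.75 in wild-type and 8.73, 8.45 and 8.63 in knockout M2 cells (-1.23 ± 0.11, adjusted p = 0.000121). Marco, a scavenger receptor that binds unopsonized particles, stood at 9.83, 9.92 and 9.77 and 8.87, 8.67 and 8.56 (-1.14 ± 0.12, adjusted p = 0.000714). Neither gene's groups overlapped, and Tlr13, a receptor for bacterial ribosomal RNA in mice, differed by -0.58 ± 0.11, adjusted p = 0.028. Other receptors of the list did not pass. Clec7a, the beta-glucan receptor Dectin-1, differed by 0.01, adjusted p = 0.986, and Tlr4, the endotoxin receptor, by 0.04, adjusted p = 0.954. Clec4d, Clec4e, Clec4n, Fpr2 and Marco stayed past the threshold without any one M2 array. Tlr13 did not without wild-type arrays a or c or knockout arrays a or b (adjusted p 0.11, 0.101, 0.0986 and 0.0876).

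Several chemokines and inflammatory genes were lower in knockout M2 cells. Of 12 measured chemokines and receptors 3 were lower and 1, Cxcr2, was higher (median -0.35), where 2.04% of all genes tested passed. Ccl4, a chemokine that attracts monocytes and T cells, stood at 8.61, 8.75 and 8.48 in wild-type and 6.91, 6.03 and 6.64 in knockout M2 cells. The knockout arrays were all more than 1 log2 unit below the lowest wild-type array, a fold of 4.25 and a difference of -2.09 ± 0.26, adjusted p = 0.00189. Cxcl16, a chemokine that also binds oxidized lipids, stood at 7.65, 7.01 and 7.18 and 6.21, 6.07 and 5.92 (-1.22 ± 0.17, adjusted p = 0.00497), and was detected on 1 of 3 knockout arrays. Ccl9 differed by -0.49 ± 0.10, adjusted p = 0.0395. Ccl3, a relative of Ccl4, did not pass (-0.66, adjusted p = 0.166), although its genotypes did not overlap. Of 12 measured genes of classical (M1) inflammation 3 were lower, Ccl4, Tnfaip2 and the cystine transporter Slc7a11, against 1.37% of all genes tested. A negative difference was found for 11 of the 12, with a median of -0.47 against -0.01 for all genes. Il1b, the inflammatory cytokine, differed by -0.32, adjusted p = 0.358.

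All 15 measured NF-kB components and feedback genes had a negative difference, with a median of -0.34 against -0.01 for all genes. The threshold was passed by 2 of them, against 2.04% of all genes tested. Tnfaip2, a TNF-induced gene, stood at 8.06, 8.15 and 8.03 in wild-type and 6.42, 6.70 and 6.97 in knockout M2 cells (-1.39 ± 0.14, adjusted p = 0.000409). One of its other probes also passed, with a difference of -1.55 (adjusted p = 0.00062), and the last differed by -0.59 (adjusted p = 0.0744). Nfkbie, which encodes the inhibitor IkB-epsilon, differed by -0.77 ± 0.17, adjusted p = 0.046. The transcription factor subunits Rela and Rel differed by -0.11, adjusted p = 0.817, and -0.21, adjusted p = 0.842. Of 14 measured immediate early genes Dusp1, a MAP kinase phosphatase, passed alone. It stood at 9.04, 9.10 and 8.69 and 7.55, 7.75 and 7.86, with every knockout array below every wild-type array (-1.22 ± 0.15, adjusted p = 0.00189). Fos differed by -0.30 ± 0.19, adjusted p = 0.61. Ccl4, Cxcl16, Tnfaip2 and Dusp1 stayed past the threshold without any one M2 array. Nfkbie and Ccl9 left it whichever M2 array was left out, with adjusted p up to 0.171 and 0.161.

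Several of the largest differences were of single genes outside these groups. H2-M2, a nonclassical MHC class I gene, stood at 10.13, 10.19 and 9.79 in wild-type and 5.12, 5.60 and 6.58 in knockout M2 cells, where it was detected on 1 of 3 arrays. This was the largest difference of the comparison (-4.27 ± 0.28, adjusted p = 3.1e-05), and it includes knockout values near background. Il7r, the interleukin-7 receptor, stood at 8.80, 8.54 and 8.25 and 5.41, 6.16 and 5.87, a difference of -2.72 ± 0.19, adjusted p = 3.76e-05. It too was detected on 1 of 3 knockout arrays, so its size includes values near background. Its 2 other probes were also lower, by -2.53 (adjusted p = 0.00022) and -1.06 (adjusted p = 0.0056). Emp1, a small membrane protein of cell junctions, stood at 9.57, 9.53 and 9.36 and 7.75, 7.39 and 7.74 (-1.86 ± 0.14, adjusted p = 5.72e-05). Csf2rb2, the mouse-specific IL-3 receptor beta chain, differed by -1.20 ± 0.13, adjusted p = 0.000966, and Rgs1, a regulator of chemokine receptor signalling, by -1.22 ± 0.16, adjusted p = 0.0035. All 5 genes stayed past the threshold without any one M2 array.

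Of 17 measured matrix genes 4 were lower in knockout M2 cells, against 1.37% of all genes tested. None was higher, 13 did not pass, 6 had a positive difference, and the median was -0.15. Mmp13, a collagenase, stood at 10.16, 9.97 and 9.96 in wild-type and 7.66, 8.59 and 8.30 in knockout M2 cells, a fold of 3.60 and a difference of -1.85 ± 0.21, adjusted p = 0.000966. Its knockout arrays spread over nearly 1 log2 unit, and all lay below the wild-type arrays. The macrophage elastase Mmp12 differed by -0.48 ± 0.10, adjusted p = 0.034, the sheddase Adam17 by -0.51 ± 0.10, adjusted p = 0.025 and the matrix protein Tgfbi by -0.56 ± 0.11, adjusted p = 0.0282. Inhba, which encodes the subunit of activin A, was undetected in knockout M2 cells and at least 1.63-fold lower. The chondroitin sulphotransferase Chst11 was at least 1.90-fold lower. Gpc1, a heparan sulphate proteoglycan, read at least 2.0-fold lower, but the wild-type M2 arrays alone detected it. It thus entered the test only through the group where it was high, and its direction is no separate result. Pdpn, a membrane mucin, stood at 8.03, 7.72 and 6.91 and 6.13, 6.07 and 6.20 (-1.42 ± 0.24, adjusted p = 0.0142), and the IL-1 receptor antagonist Il1rn differed by -1.42 ± 0.26, adjusted p = 0.0177.

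Among these genes Mmp13, Inhba and Chst11 stayed past the threshold without any one M2 array. Gpc1 was no longer measured once a wild-type M2 array was left out, because its probe was then detected on too few arrays. Pdpn left the threshold without wild-type arrays a or b (adjusted p 0.054 and 0.066). Il1rn left it without any of the wild-type arrays or without knockout array a (adjusted p 0.082, 0.070, 0.056 and 0.067). Mmp12 left it whichever M2 array was left out (adjusted p up to 0.131), and so, for all M2 arrays but 1, did Adam17 and Tgfbi (up to 0.117 and 0.129).

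Some genes of cholesterol synthesis were higher in knockout M2 cells. Of 20 measured members of a list of cholesterol synthesis genes and SREBP targets, 5 were higher, against 0.67% of all genes tested. None was lower and 15 did not pass, with a median of 0.49 against -0.01 for all genes. SREBP factors induce these genes when membrane sterol is low. Nsdhl, a sterol dehydrogenase, stood at 7.71, 7.78 and 7.85 in wild-type and 8.62, 8.55 and 8.41 in knockout M2 cells (0.75 ± 0.11, adjusted p = 0.00761). Sqle, the squalene epoxidase, stood at 7.58, 7.71 and 7.88 and 8.58, 8.35 and 8.33 (0.70 ± 0.12, adjusted p = 0.0157). Fdps, Idi1 and Hmgcs1, enzymes of the mevalonate pathway, differed by 0.72 ± 0.15, adjusted p = 0.0411, 0.60 ± 0.12, adjusted p = 0.028 and 0.52 ± 0.11, adjusted p = 0.0453. In all 5 genes the knockout arrays lay above the wild-type arrays, as they did for 14 of the 20 members. Of all genes tested, 19.2% had no overlap in either direction. Cyp51, Mvd and Lss, further enzymes of the pathway, had positive differences that did not pass (0.95, adjusted p = 0.0944 for Cyp51, 0.83, adjusted p = 0.137 for Mvd and 0.72, adjusted p = 0.065 for Lss). Fads1 and Srebf1 had negative differences that did not pass (-0.48, adjusted p = 0.0941 and -0.31, adjusted p = 0.5).

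The count for cholesterol synthesis fell when arrays were left out. Without each M2 array in turn, between 1 and 3 members were past the threshold, and without the 3 arrays of low detected share there were 0 of 20, where the median was 0.48. Nsdhl stayed past the threshold without any one M2 array. Sqle did not without wild-type array a or b or knockout array a (adjusted p 0.082, 0.066 and 0.060), and Fdps, Idi1 and Hmgcs1 left it whichever M2 array was left out (up to 0.148, 0.124 and 0.174). The list's median stayed between 0.47 and 0.56 in these repeats.

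The cholesterol exporter Abca1 was lower in knockout M2 cells. Of 13 measured genes of efflux, LXR targets and apolipoproteins 2 were lower, against 1.37% of all genes tested, and none was higher (median -0.02). Abca1 stood at 7.95, 8.19 and 8.16 in wild-type and 5.92, 7.13 and 6.88 in knockout M2 cells. Knockout array a was the lowest by nearly 1 log2 unit, and the groups did not overlap (-1.45 ± 0.25, adjusted p = 0.0143). Ch25h stood at 10.49, 10.55 and 10.47 and 9.52, 9.81 and 9.34 (-0.95 ± 0.19, adjusted p = 0.0257). Abca1 left the threshold without wild-type array a, b or c (adjusted p 0.0501, 0.066 and 0.053), and Ch25h without every M2 array but knockout array b (up to 0.098). Abcg1, a partner of Abca1, differed by -0.10, adjusted p = 0.878. Of 20 measured genes of lipid droplets and fatty acid handling, Fabp5, a fatty acid binding protein, passed alone (0.55 ± 0.10, adjusted p = 0.0183), and left the threshold without wild-type array b or c or knockout array b or c (up to 0.0774). Outside the lists, Slco2b1, an organic anion transporter, stood at 8.57, 8.23 and 8.68 and 9.78, 9.64 and 9.62 (1.19 ± 0.14, adjusted p = 0.00111). It stayed past the threshold without any one M2 array. Cyp4f18, a cytochrome P450 that oxidizes leukotriene B4 in mice, was at least 2.20-fold higher, and left the threshold without wild-type array a or c or knockout array c (adjusted p up to 0.0762). Retsat, which saturates retinol, was at least 1.80-fold higher, and left the threshold without wild-type array a or b or knockout array a or c. Its model difference was 1.11 ± 0.20, adjusted p = 0.0183, but 0.51 without knockout array c (adjusted p = 0.661) and 0.36 without the 3 arrays of low detected share, where it did not pass either, and its other probe differed by 0.37 (adjusted p = 0.729).

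The Hmgcs1 promoter is shown because the sterol response of this gene is a standard example of SREBP control. The motif searched was TCACNCCAC on both strands of the same RefSeq windows, here chr13:119690101-119690400 of GRCm38.p6, plus strand. Capitals mark the single match, whose first base lies at position -137.
Hmgcs1: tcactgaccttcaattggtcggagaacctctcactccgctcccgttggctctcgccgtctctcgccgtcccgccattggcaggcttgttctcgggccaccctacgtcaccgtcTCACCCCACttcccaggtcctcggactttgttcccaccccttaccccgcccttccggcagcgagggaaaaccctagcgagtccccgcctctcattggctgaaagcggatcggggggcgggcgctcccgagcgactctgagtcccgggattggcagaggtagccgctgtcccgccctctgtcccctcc
Of the 5 genes that were higher, 3 had a RefSeq window in the table and 1, Hmgcs1, held the motif, and 1.24% of all 32851 windows held it.

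Some genes of the NRF2 antioxidant response were lower in knockout M2 cells. NRF2, encoded by Nfe2l2, induces genes for glutathione and thioredoxin metabolism. Of 27 measured genes 6 were lower, against 1.37% of all genes tested, none was higher and 21 did not pass, with a median of -0.13. Slc7a11, the cystine importer, stood at 8.80, 8.51 and 8.19 in wild-type and 7.31, 7.54 and 7.56 in knockout M2 cells (-1.03 ± 0.18, adjusted p = 0.0143). Gclm, the modifier chain of glutamate-cysteine ligase, stood at 8.74, 8.83 and 8.31 and 8.02, 7.86 and 7.62 (-0.79 ± 0.16, adjusted p = 0.0283). Srxn1, which repairs oxidized peroxiredoxins, stood at 9.85, 9.85 and 9.65 and 9.15, 9.12 and 9.14 (-0.65 ± 0.10, adjusted p = 0.00828). In each of these genes all knockout arrays were below all wild-type arrays. Txnrd1, the thioredoxin reductase, differed by -0.55 ± 0.09, adjusted p = 0.0129, the peroxiredoxin Prdx1 by -0.46 ± 0.10, adjusted p = 0.0411 and the catalase Cat by -0.43 ± 0.10, adjusted p = 0.0482. Hmox1, the haem oxygenase, and Nfe2l2 itself did not pass (-0.13, adjusted p = 0.816, and -0.25, adjusted p = 0.26).

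Srxn1 stayed past the threshold without any one M2 array, and the other 5 did not. Slc7a11 left it without wild-type array a or b or knockout array a (adjusted p 0.066, 0.066 and 0.056), and Txnrd1 without wild-type array a or b (0.061 and 0.054). Gclm left it without wild-type array a or b or knockout array b or c (up to 0.128), and Prdx1 and Cat whichever array was left out (up to 0.174 and 0.166). Without each M2 array in turn the list had 1 to 4 members past the threshold, and it had 0 of 27 without the 3 arrays of low detected share, where its median was -0.13.

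Promoters of the NRF2 group are shown because 4 of its 6 lower genes held TGACNNNGC, the core of the antioxidant response element, in a RefSeq window. Capitals mark the matches, all on the opposite strand. Their first bases lie at position -134 in Gclm (chr3:122245307-122245606), -133 in Prdx1 (chr4:116685349-116685648), 28 in Srxn1 (chr2:152105274-152105573) and -92 in Txnrd1 (chr10:82858956-82859255), all on the plus strand of GRCm38.p6.
Gclm: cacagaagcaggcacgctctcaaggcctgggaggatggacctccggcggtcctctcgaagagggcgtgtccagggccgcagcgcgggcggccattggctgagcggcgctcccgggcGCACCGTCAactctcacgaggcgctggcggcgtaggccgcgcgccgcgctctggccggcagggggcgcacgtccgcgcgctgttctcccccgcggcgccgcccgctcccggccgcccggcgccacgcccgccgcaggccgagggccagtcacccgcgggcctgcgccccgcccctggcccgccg
Prdx1: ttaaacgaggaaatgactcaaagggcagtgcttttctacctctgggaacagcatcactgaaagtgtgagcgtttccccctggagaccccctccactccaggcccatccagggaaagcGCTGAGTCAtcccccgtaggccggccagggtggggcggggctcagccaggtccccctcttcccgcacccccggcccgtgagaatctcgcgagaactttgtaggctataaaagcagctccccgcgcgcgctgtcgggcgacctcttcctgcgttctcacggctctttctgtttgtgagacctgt
Srxn1: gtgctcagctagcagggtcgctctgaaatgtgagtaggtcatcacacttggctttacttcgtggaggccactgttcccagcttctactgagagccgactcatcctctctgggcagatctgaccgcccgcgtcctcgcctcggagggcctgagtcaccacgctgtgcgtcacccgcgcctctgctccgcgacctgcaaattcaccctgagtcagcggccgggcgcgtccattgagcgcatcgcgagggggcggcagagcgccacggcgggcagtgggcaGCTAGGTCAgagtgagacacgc
Txnrd1: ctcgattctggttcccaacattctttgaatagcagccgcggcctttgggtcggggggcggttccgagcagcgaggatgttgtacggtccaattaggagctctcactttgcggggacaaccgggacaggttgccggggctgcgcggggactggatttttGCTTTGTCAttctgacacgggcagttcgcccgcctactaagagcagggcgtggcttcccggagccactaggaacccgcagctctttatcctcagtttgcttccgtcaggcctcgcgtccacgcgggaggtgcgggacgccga
Counted by windows, 4 of the 8 windows of the 6 genes held the motif. It is present in 12.4% of all 32851 windows and in 14.2% of the 6935 windows of the genes tested. Among genes past the threshold it was in 18.8% of 96 windows of the lower genes and 20.9% of 43 windows of the higher genes. The Prdx1 match overlaps the AP-1 motif TGACTCA. Txnrd1 has 3 windows, of which 1 held a match, and the windows of Slc7a11 and Cat held none.

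Amino acid genes of the ATF4 programme overlapped with this group through Slc7a11. Of 22 measured genes 4 were lower, against 1.37% of all genes tested, and none was higher (median -0.24). Mthfd2, a mitochondrial folate enzyme, differed by -0.78 ± 0.16, adjusted p = 0.0316, the glutamine transporter Slc38a2 by -0.57 ± 0.12, adjusted p = 0.0418 and the leucyl-tRNA synthetase Lars by -0.57 ± 0.12, adjusted p = 0.0393. Asns, the asparagine synthetase, differed by -0.74, adjusted p = 0.0922, and the transcription factor Atf4 by -0.18, adjusted p = 0.844. Slc38a2 and Lars left the threshold whichever M2 array was left out (adjusted p up to 0.149 and 0.151), and Mthfd2 for all but wild-type array c (up to 0.112). Without each M2 array in turn the list had 0 to 3 members past the threshold (limma), and 0 of 22 without the 3 arrays of low detected share. Of 16 measured iron and haem genes 2 were lower, against 1.37% of all genes tested. Alas1, which starts haem synthesis, stood at 10.80, 10.80 and 10.82 in wild-type and 10.01, 10.01 and 10.06 in knockout M2 cells, with a spread of less than 0.1 log2 units within each genotype (-0.78 ± 0.09, adjusted p = 0.00178), and it stayed past the threshold without any one M2 array. Slc11a1, a metal transporter of the phagosome, differed by -0.70 ± 0.15, adjusted p = 0.0453, and left the threshold without every M2 array but knockout array b (up to 0.170).

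**Figure D3:**
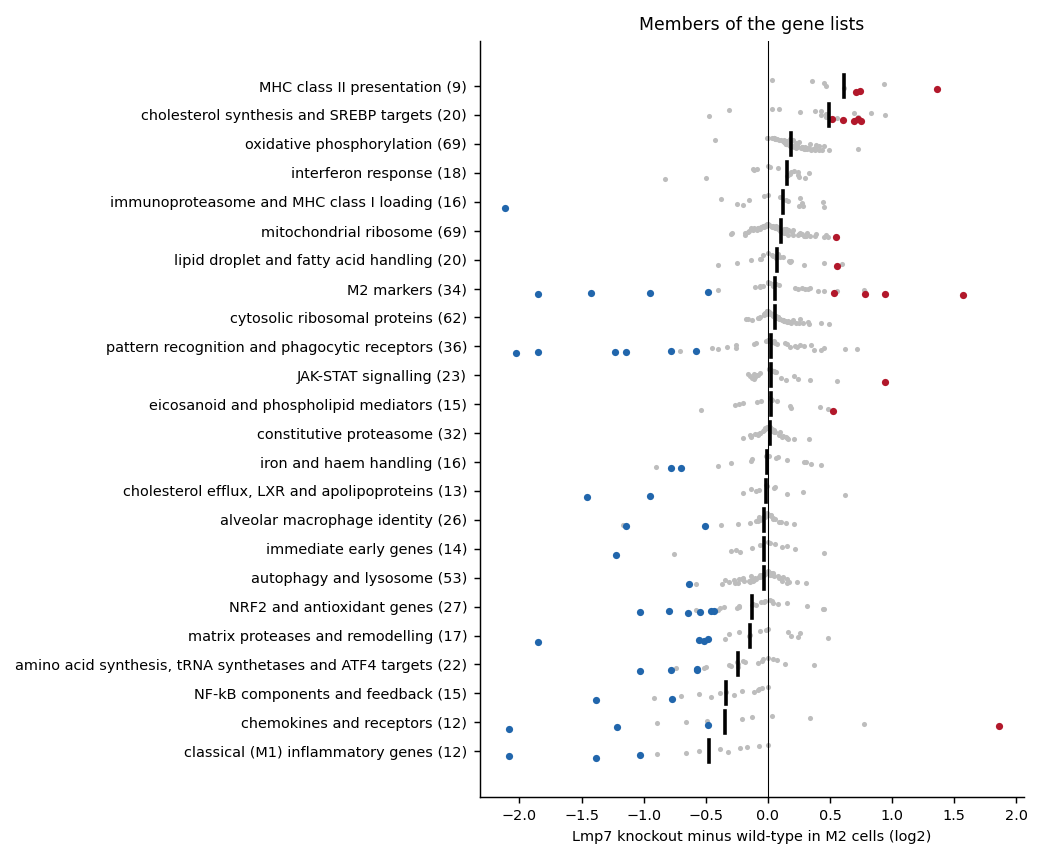
Knockout minus wild-type difference in M2 cells (log2, horizontal axis) of the members of gene lists, with the number of measured genes in parentheses. Points are genes, red those past the threshold and higher in knockout cells, blue those past it and lower, grey those not past it, and black bars are list medians. Medians run from -0.47 for classical inflammatory genes to 0.62 for MHC class II presentation.

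The genes for the classical MHC class II chains were higher in knockout M2 cells. Class II molecules present peptides to CD4 T cells, and IL-4 is known to raise them. Of 9 measured genes 3 were higher, against 0.67% of all genes tested, and none was lower. All 9 had a positive difference, with a median of 0.62 against -0.01 for all genes. The genotypes did not overlap for 8 of the 9, against 19.2% of all genes tested. H2-Eb1 stood at 5.83, 5.47 and 5.75 in wild-type M2 cells, where it was detected on no array, and 6.29, 7.52 and 7.32 in knockout M2 cells, at least 2.02-fold higher. Knockout array a was more than 1 log2 unit below the other knockout arrays, and the model difference was 1.36 ± 0.30, adjusted p = 0.046. H2-Ab1 stood at 9.41, 9.62 and 9.29 and 10.10, 10.13 and 10.31 (0.74 ± 0.16, adjusted p = 0.041), and H2-Aa at 9.42, 9.37 and 9.26 and 10.07, 9.94 and 10.17 (0.71 ± 0.10, adjusted p = 0.00576). Cd74, the invariant chain, differed by 0.62, adjusted p = 0.0568, and H2-DMa and H2-DMb1, which load peptides, by 0.36, adjusted p = 0.152, and 0.45, adjusted p = 0.15. The count of 3 became 1 with median scaling, 0 with the 6 M2 arrays only (limma, 824 of all genes at an unadjusted p under 0.05), 1 without the 3 arrays of low detected share and 1 to 2 without each M2 array in turn, while the median stayed between 0.54 and 0.68 in the last 2 kinds of repeat and was 0.65 with median scaling. H2-Aa stayed past the threshold without any one M2 array. H2-Ab1 left it whichever array was left out (adjusted p up to 0.137), and H2-Eb1 without every array but knockout array a (up to 0.174).

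One marker of monocytes and interstitial macrophages was also higher. C1qb, a chain of complement C1q, stood at 5.16, 5.31 and 5.38 in wild-type and 6.29, 6.16 and 6.27 in knockout M2 cells, at least 1.16-fold higher (0.96 ± 0.17, adjusted p = 0.0177). C1qc, detected on no wild-type M2 array, and C1qa did not pass (0.57, adjusted p = 0.155, and 0.23, adjusted p = 0.881). C1qb left the threshold without wild-type array a or b or knockout array a or c (adjusted p up to 0.0902). Summed over the 3 measured markers of that list, the linear intensity ran from 137 to 157 on wild-type M2 arrays and from 198 to 240 on knockout M2 arrays. C1qb is 1 of the 3, so the sum is no measure apart from its increase. The other 9 markers of the list that are on the array, among them Ccr2, Cx3cr1, Folr2 and Lyve1, were not measured by the detection rule. The part of such cells in the class II difference was not tested. In a bulk sample, fewer cells of a type and less RNA per cell cannot be told apart.

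The 3 higher class II genes lie beside Psmb8. On chromosome 17, the order of genes in RefSeq (GRCm38.p6) puts H2-Ab1, H2-Aa and H2-Eb1 at places 2, 3 and 4 among measured genes after Psmb8, and H2-M2 at place 53. Among the 100 measured genes within 50 places of Psmb8, 7 passed the threshold, or 7%, of which 6 were higher. The share was 3.02% of 232 other genes on that chromosome and 1.91% of 6230 genes elsewhere. Besides the class II genes, the higher ones were H2-T24, H2-T10 and Ppp1r11. H2-T24 and H2-T10 are nonclassical class I genes with close relatives, so their probes may also read other copies. These 2 genes left the threshold without every M2 array but knockout array a (adjusted p up to 0.151 and 0.168), and Ppp1r11 without wild-type array a or c or knockout array a or c (up to 0.0819). The lower one was Cfb, complement factor B (-0.51 ± 0.11, adjusted p = 0.046), which left the threshold whichever M2 array was left out (up to 0.168). The part of the chromosome around the targeted gene that differs in sequence between the mouse lines was not stated, and its part in these differences was not tested.

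**Figure D4:**
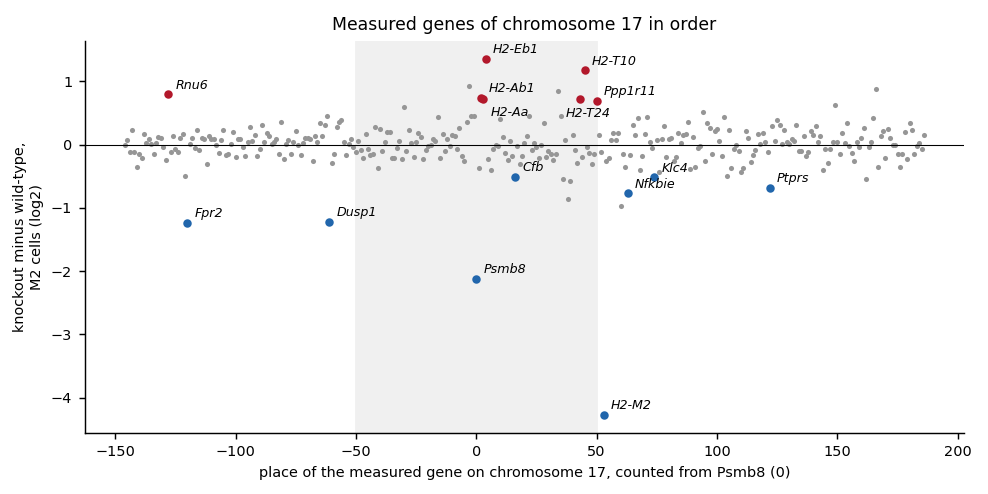
Measured genes of chromosome 17 in RefSeq order. The horizontal axis is the place of each measured gene counted from Psmb8 (0) and the vertical axis is knockout minus wild-type in M2 cells (log2). Red and blue points are genes past the threshold and higher or lower in knockout cells, and the grey band spans 50 places on each side. Class II genes stand close to Psmb8, and H2-M2, at -4.27, stands at place 53.

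Cxcr2, a chemokine receptor typical of neutrophils, had the largest increase. It stood at 6.18, 6.22 and 6.96 in wild-type and 8.21, 8.78 and 7.95 in knockout M2 cells, without overlap, a fold of 3.63 and a difference of 1.86 ± 0.27, adjusted p = 0.00576. It stayed past the threshold without any one M2 array, but had an adjusted p of 0.052 without the 3 arrays of low detected share. Of 15 neutrophil markers, 4 were measured, and the other 3 did not pass. S100a8, a calcium-binding protein abundant in neutrophils, stood at 6.54, 6.34 and 6.85 and 6.68, 6.82 and 6.72 (0.16 ± 0.15, adjusted p = 0.788). Camp, a granule protein, differed by -0.22, adjusted p = 0.856, and Csf3r was detected on no M2 array of either genotype. S100a9, Mpo, Ltf, Elane, Ngp and Retnlg were not measured by the detection rule. The summed intensity of the 4 ran from 253 to 339 on wild-type and from 441 to 622 on knockout M2 arrays. Cxcr2 is 1 of the 4, so the sum is no measure apart from its increase. Of the other marker lists, those for B cells, eosinophils and mast cells, dendritic cells, stroma, and red cells and platelets had no member past the threshold. Il7r and Pdpn are the members that passed of the T cell and the epithelial lists, and Cd3e, Cd4, Cd8a, Sftpb and Krt8 were not measured by the detection rule.

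Other large groups held few genes past the threshold. All but 2 of 69 measured oxidative phosphorylation genes had a positive difference, with a median of 0.18 against -0.01 for all genes. For 38 of the 69 the genotypes did not overlap, against 19.2% of all genes tested. None of the 69 passed (limma), and the 2 of smallest p were Ndufa5 (0.49 ± 0.12, adjusted p = 0.067) and Sdhb (0.44 ± 0.11, adjusted p = 0.0865). Of 69 mitochondrial ribosomal proteins Mrpl12 passed (0.55 ± 0.12, adjusted p = 0.0429), with a median of 0.11. The median was 0.05 for 62 cytosolic ribosomal proteins, 0.06 for 30 genes of the unfolded protein response, -0.04 for 24 chaperones, -0.06 for 38 cell cycle genes and 0.16 for 18 interferon genes, none of which had a member past the threshold. Of 53 lysosome and autophagy genes Gpnmb alone passed (-0.63 ± 0.12, adjusted p = 0.0207). Of 26 genes of alveolar macrophage identity Marco and Tgfbr1 were lower, and both Mrpl12 (adjusted p up to 0.172) and Tgfbr1 left the threshold whichever M2 array was left out, as Gpnmb did for 4 of the 6 (up to 0.0926). Pparg, Fabp4 and Itgax did not pass (0.04, adjusted p = 0.95, -0.06, adjusted p = 0.906 and -0.08, adjusted p = 0.881).

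The same genotype difference was measured in the M0 groups, whose arrays are separate from those of the M2 groups. Both tests share 1 estimate of each gene's spread from the common model, so the 2 sets of calls are not independent. In M0 cells 45 genes passed the threshold (0.686% of genes tested), 25 higher and 20 lower in knockout cells. Of these, 23 also passed in M2 cells, which is 51.1% of the M0 genes and 17.2% of the M2 genes. All 23 had the same direction in both states, 11 higher and 12 lower. Psmb8, H2-M2, Il7r, Emp1, Mmp13, Marco and Ch25h were lower in both, and Cxcr2, Cyp4f18, C1qb, Dnajc15, H2-Aa and H2-Ab1 were higher in both. Dnajc15, a mitochondrial co-chaperone, stood at 7.17, 6.99 and 6.97 on wild-type and 8.57, 8.39 and 8.39 on knockout arrays of the M0 state, and at 7.22, 7.37 and 7.09 and 8.32, 8.06 and 8.04 in the M2 state, and the genotypes did not overlap in either state. Its M2 call, like that of Psmb8, held without any one M2 array. Of the 134 M2 genes 120 had the same sign in M0 cells. The share over all genes was not computed, so this count does not show by itself that the states agree. Across all 6563 genes the correlation of the 2 differences was 0.37, as a description, with genes not independent of each other. Leaving out 1 M0 array took the M0 count to between 18 and 30.

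**Figure D5:**
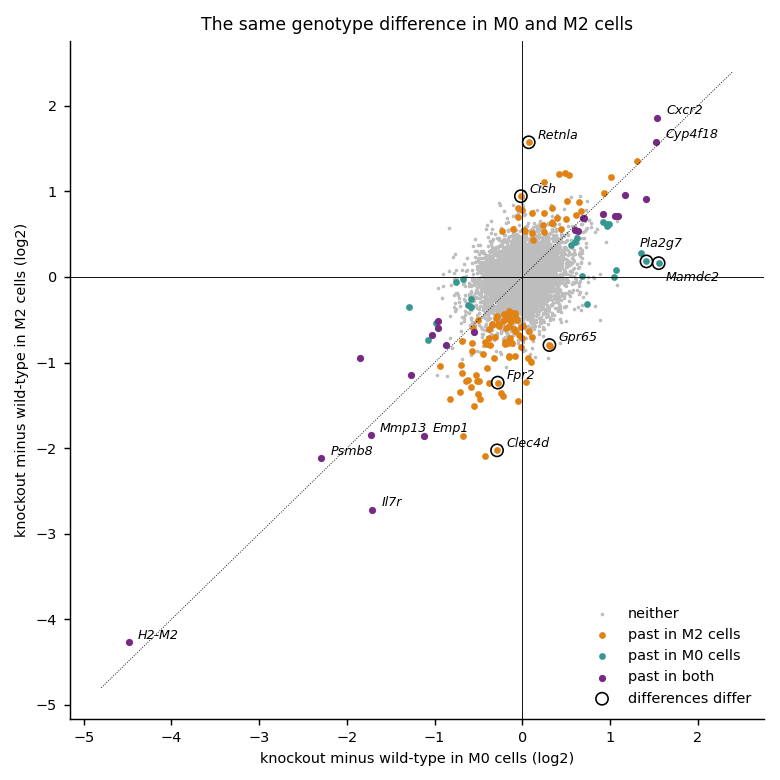
Knockout minus wild-type difference in M0 cells (log2, horizontal axis) against the same difference in M2 cells (log2, vertical axis). Each point is 1 of 6563 genes, coloured by the state in which it passed the threshold, and open circles mark the 7 genes whose differences differed between states. The dotted line marks equal differences. H2-M2 and Psmb8 lie near that line, and Retnla, Cish and Clec4d lie near 0 on the horizontal axis. Retnla and Cish were undetected in M0 cells.

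A difference past the threshold in M2 cells and not in M0 cells does not show that the states differ, so the difference of the genotype differences was tested in the same model. It passed for 7 genes (0.107% of genes tested), 2 higher and 5 lower in M2 than in M0 cells, and 436 genes had an unadjusted p under 0.05. Clec4d stood at 10.74, 10.55 and 10.61 in wild-type and 10.53, 10.29 and 10.22 in knockout M0 cells, where the genotypes did not overlap but lay within 1 log2 unit, a difference of -0.29 ± 0.15, adjusted p = 0.59. The M2 difference exceeded it by -1.74 ± 0.21, adjusted p = 0.015. Fpr2 (-0.95 ± 0.15, adjusted p = 0.04996) and Gpr65, a proton-sensing receptor (-1.10 ± 0.16, adjusted p = 0.0352), also had M2 differences below their M0 differences. Retnla was undetected in both M0 groups, at 4.99, 4.82 and 5.02 and 5.07, 5.02 and 4.96, and its differences differed by 1.5 ± 0.21, adjusted p = 0.0312. Cish, also undetected, was at 4.98, 4.98 and 5.14 and 5.01, 5.11 and 4.92 in M0 cells, with a difference of differences of 0.96 ± 0.15, adjusted p = 0.04996. For Retnla and Cish a genotype difference in M0 cells could not be read, so this test largely restates their M2 difference.

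Mamdc2 and Pla2g7 were the 2 of these genes whose genotype difference passed the threshold in M0 cells and not in M2 cells. Mamdc2 was detected on no M2 array of either genotype (means 5.31 in wild-type and 5.47 in knockout cells), so a difference there could not be read. Pla2g7, which hydrolyses platelet-activating factor, stood at 7.27, 7.09 and 7.22 on wild-type and 8.68, 8.68 and 8.47 on knockout M0 arrays, and at 6.75, 6.56 and 6.73 and 6.80, 7.0 and 6.77 in M2 cells. Its genotypes did not overlap in either state, but the M2 groups were close (0.18 ± 0.11, limma adjusted p = 0.581). Its difference of differences was -1.23 ± 0.16, adjusted p = 0.015, and that of Mamdc2 was -1.39 ± 0.17, adjusted p = 0.015. These calls changed with the arrays left out. The count with limma was 0 without wild-type M2 array a, knockout M2 array a or knockout M0 array b, where 362, 410 and 385 genes had an unadjusted p under 0.05, and at most 8 without any other array.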

How the data were processed

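Total RNA of the 12 arrays was amplified and biotin-labelled, per the labels' protocols, and hybridised to Illumina bead arrays. The deposited intensities are background-subtracted and not normalized between arrays, per the file headers, and each has a deposited detection p-value. The authors' deposited processed intensities, on a linear scale and normalized by a method not given in the sources used here, served as an alternative. The raw columns name group and serial number but no replicate, and letters a to c follow column order within a group.

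Background was corrected by normexp from the detection p-values (offset 16), followed by log2 and quantile normalization, in limma 3.58.1 (R 4.3.3). Probes detected (p under 0.05) on at least 3 of 12 arrays were kept, and 574 of 9200 had no gene symbol and were left out. A gene was read by its probe of highest mean, which set aside 2063 dimmer probes. A model with 4 group means and 8 residual degrees of freedom was fitted to all 12 arrays, with eBayes and Benjamini-Hochberg adjustment over 6563 genes. Array values carry no counts, so precision is limited by 3 arrays per group and by signal over background.

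The members and gene lists were chosen with earlier results of these data known. Named genes were Psmb8, up to 25 largest increases and decreases, from each list at most 5 genes past the threshold or else the 2 of smallest p, a fixed set of proteasome and IL-4 genes, all genes of the difference of differences, and the 10 largest past in both states. Other genes in the text were chosen after their values were seen. The test was checked on simulated data for the M2 comparison with 200 of 6563 genes changed: 30.2%, 73.4% and 99.1% of genes changed by 0.5, 1 and 2 log2 units were recovered, and 5.62% of calls were false. Whether these recovered and false shares hold for the 12 arrays themselves was not tested. Promoters are RefSeq windows, and figures used matplotlib 3.10.9.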

Additional observations from a re-analysis of the deposited data

Results flagged for a closer look

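The 7 genes named here had a genotype difference in M2 cells that differed from that in M0 cells by the test of the difference itself (limma, adjusted over all genes). The value was -1.74 log2 units for Clec4d, -0.95 for Fpr2, -1.10 for Gpr65, -1.23 for Pla2g7 and -1.39 for Mamdc2, and 1.5 for Retnla and 0.96 for Cish. Mamdc2 was undetected in both M2 groups, and Retnla and Cish in both M0 groups, so their genotype difference in that state could not be read. No sample group had the 4 or more arrays needed to look for single outlying arrays.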

How the results depend on the processing

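Of 28 alternatives, the direction of 133 of 134 M2 genes was the same in all that gave a value. The exception was Cd33, whose probes disagree. In all that gave a value 23 genes stayed past the threshold, of which 9 had a value in all 28. Counts moved more. In M2 cells 134 genes became 47 with median scaling, 212 with detection p under 0.01 on all 12 arrays (3005 genes tested), 44 with the 6 M2 arrays only, 277 with a trended and robust eBayes and 41 without the 3 arrays of low detected share. In M0 cells 45 became 24 with median scaling, 109 with the trended and robust eBayes and 19 without those arrays. For the difference of differences 7 became 1 with median scaling, 13 with every probe tested singly, 24 with the trended and robust eBayes and 0 (492 at an unadjusted p under 0.05) without those arrays. Leaving out 1 array gave 45 to 111, 18 to 41, and 0 to 8 genes (limma, 362 to 410 at an unadjusted p under 0.05 where the count was 0), and a difference in detected share of -2.40 to 0.993 percentage points. Median scaling put the median of all genes at -0.06 and the M2 split at 11 higher and 36 lower, against 44 and 90. The cause of these shifts was not tested, beyond the fewer genes or arrays used. With the authors' processed values 171, 48 and 5 genes passed, and with the replicate number as a block 212, 61 and 6. The numbers share no stated source. Same-numbered arrays of the 2 genotypes correlated in their deviations by 0.12, -0.02 and 0.05 in M2 cells and by 0.38, 0.25 and 0.12 in M0 cells. Arrays of unlike number correlated by -0.14 to 0.11 in M2 cells and by -0.31 to 0.13 in M0 cells. In M0 cells 0.38 and 0.25 lay above that range and 0.12 within it, and in M2 cells only 0.12 lay just above. Pairing was thus not settled, and the fit without the block was kept. Quantile normalization before log2, chosen after seeing the data, gave 134, 45 and 5. Small signals over background limit genes undetected in a group.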
